A study of Mus musculus and Rattus norvegicus with 51 samples.

Results

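The genes described here are 9 genes that mark Kupffer cells, the macrophages that live in the liver sinusoids: Clec4f, Vsig4, Timd4, Marco, Cd5l, Cd163, Folr2, Adgre1 and Csf1r. They were given as a list of names, made with earlier results of these data known, and stand among 24421 genes in one mouse liver count table and 24982 in another. No threshold on a measured value enters the list. Each of the 9 was found in both tables and passed the filter on low counts, which kept 13487 and 14129 genes. The study asks what the redox forms of HMGB1, a nuclear protein that acts as a danger signal once released, do in liver fibrosis and its resolution. Levels are given as CPM, corrected for library size with TMM factors.

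The samples are RNA from total liver of male mice. In the first table, 18 libraries fall into 6 groups of 3, from WT mice. Groups at 4 weeks of CCl4, a hepatotoxin that causes fibrosis, had also received BSA (a control protein), [H] HMGB1 (the reduced form) or [O] HMGB1 (the oxidized form). Groups that had regressed for 1 week after CCl4 received BSA, [SO3] HMGB1 (the sulfonated form) or an antibody to HMGB1. In the second table, 21 libraries came from mice given MO or CCl4 for 4 weeks. These mice were WT, or carried the Hmgb1ΔHepΔMye deletion, that is of Hmgb1 in hepatocytes and myeloid cells, and received either WT HMGB1 or Δ[O] HMGB1. The labels spell out neither MO nor Δ[O]. The name under which these counts were deposited holds AAV8, a viral vector. The sample titles do not name it and do not say whether WT mice received it. The table's columns carry class codes, and which knockout class had received which HMGB1 was read from the sample numbers each holds under CCl4. Each MO group has 3 libraries and each CCl4 group has 4. The labels name neither the Cre drivers nor the promoter of the HMGB1 that was given, and no group carried the deletion without one of them. The deletion was therefore always present together with the HMGB1 that was given, and the effects of both cannot be told apart. The labels do not say that numbered samples are separate animals. The p-values reflect only how far libraries lie from others of their own group, which may be technical. In the main fit this spread was estimated over all groups of a table together, so groups outside a comparison enter its p-values too.

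Kupffer cells are seeded from the embryo and renew themselves in the sinusoid, where they clear bacteria, aged red cells and dying cells. Their identity is held by signals from neighbouring endothelial, stellate and hepatocyte cells and by transcription factors such as LXRα, ID3, SPIC and MAF proteins. After liver injury monocytes enter, and macrophages derived from them can take on part of the Kupffer gene set with time, CLEC4F and VSIG4 earlier and TIMD4 late. Clec4f and Timd4 are among the more restricted markers of the list, while Adgre1 (encoding F4/80) and Csf1r (the receptor for CSF1 and IL-34) are shared by most macrophages.

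Total gene counts per library ran from about 8355700 to 16327000 in the first table and from about 22599000 to 39323000 in the second. No member was near the limit of detection: the lowest count of any member in any library was 69 in the first table and 149 in the second. Hmgb1 itself was at 74.9 ± 2.28 CPM (SD, n = 3) in WT MO livers, 69.4 ± 5.42 (n = 3) in knockout livers with WT HMGB1 and MO, and 173 ± 42.2 (n = 3) in knockout livers with Δ[O] HMGB1 and MO. Under CCl4 the corresponding means were 74.8, 58.7 and 74.5 CPM (n = 4 each), so the gene's total does not show the deletion, which these counts cannot separate from the HMGB1 that was given. Lyz2, a myeloid gene, was at 94.7 to 218 CPM in the WT libraries of the second table and at 1.76 to 9.51 CPM in the knockout libraries. Alb, the hepatocyte gene for albumin, was at 62393 CPM or more in every library of the second table.

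Per kilobase of exon, which allows genes to be set side by side, Cd5l (a secreted macrophage protein that dampens apoptosis) and Clec4f (a galactose-binding lectin) led in WT MO livers at 90.5 ± 7.21 and 86.7 ± 8.15 CPM per kb (SD, n = 3), and their ranges of mean ± SD overlapped. Vsig4 followed at 38.5 ± 1.40, Marco at 31.97 ± 2.43, Csf1r at 17.7 ± 1.11 and Folr2 at 14.0 ± 1.49. The lowest were Timd4 at 8.34 ± 0.665, Cd163 at 7.45 ± 0.319 and Adgre1 at 6.89 ± 1.43, which could not be ordered beyond their spread. After CCl4, Marco led the WT order at 84.8 ± 10.8 CPM per kb (n = 4), ahead of Cd5l at 62.0 ± 11.6 and Clec4f at 24.7 ± 4.23. In the first table, where all mice had received CCl4, Marco at 207 ± 68.2 and Cd5l at 157 ± 38.9 CPM per kb (n = 3) also led in the fibrosis BSA group, and these 2 overlapped in their spread. Alb was at 16040 ± 1836 CPM (SD) in that group, below every library of the second table. Only the order of genes, not their level, is therefore set side by side between the tables.

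The promoters of 3 members with contrasting changes are shown, since Timd4 and Vsig4 fell and Marco rose when WT livers were exposed to CCl4 (below). They are the 250 bases before the RefSeq transcription start in GRCm38.p6, 5′ to 3′ on the gene's strand. Capitals mark matches on either strand to GAGGAA (the core bound by PU.1), TGCTGA (a core of MAF elements), AGGTCA (a core of nuclear receptor elements) or TGGGAA (the core bound by RBPJ, the partner of Notch).
Timd4, chr11:46810549-46810798, plus strand: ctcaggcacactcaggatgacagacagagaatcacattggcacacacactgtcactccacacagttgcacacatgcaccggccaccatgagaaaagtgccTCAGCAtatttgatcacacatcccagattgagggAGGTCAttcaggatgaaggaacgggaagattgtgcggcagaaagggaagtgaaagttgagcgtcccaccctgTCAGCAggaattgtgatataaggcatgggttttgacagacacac
Vsig4, chrX:96293439-96293688, minus strand: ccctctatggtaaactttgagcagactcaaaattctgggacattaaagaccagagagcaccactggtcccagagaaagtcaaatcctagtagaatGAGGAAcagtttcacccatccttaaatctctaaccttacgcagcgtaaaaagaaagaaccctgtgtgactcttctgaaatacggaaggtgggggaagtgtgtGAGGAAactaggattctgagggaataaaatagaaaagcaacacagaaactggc
Marco, chr1:120505025-120505274, minus strand: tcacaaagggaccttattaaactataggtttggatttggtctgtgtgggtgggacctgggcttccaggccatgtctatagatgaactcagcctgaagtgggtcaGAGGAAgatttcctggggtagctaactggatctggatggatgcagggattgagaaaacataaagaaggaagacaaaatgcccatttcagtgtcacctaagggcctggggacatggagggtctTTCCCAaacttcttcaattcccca

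The Timd4 window holds 2 MAF cores and 1 nuclear receptor core, the Vsig4 window holds 2 PU.1 cores, and the Marco window holds 1 PU.1 core and 1 RBPJ core. Over the 7 members in the promoter table (Adgre1 and Csf1r have no entry there), the MAF core was found for 4, the PU.1 core for 3, and the nuclear receptor core and the RBPJ core for 2 each. Among the 32851 windows of the same length in the table, these motifs occurred in 16.1%, 23.3%, 14.0% and 21.6%. These shares are per window, while members are counted per gene, and Folr2 has 2 windows. A match of 6 bases is a description of the sequence and does not show that a factor binds there. Timd4 lies on chromosome 11 from 46810800 to 46844332, Vsig4 on the X chromosome from 96247203 to 96293438, and Marco on chromosome 1 from 120474538 to 120505024 (GENCODE, GRCm38).

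In WT livers, 5 of the 9 genes fell and 1 rose with 4 weeks of CCl4 compared with MO. Clec4f, Cd163 (the haptoglobin-haemoglobin scavenger receptor), Folr2 (a folate receptor of resident macrophages), Timd4 (a receptor for phosphatidylserine on dying cells) and Vsig4 (a complement receptor) fell, and Marco (a scavenger receptor for bacteria and particles) rose. Over all genes tested, 23.5% were called lower and 22.8% higher at a Benjamini-Hochberg adjusted p under 0.05 in edgeR's quasi-likelihood test. The median log2 fold change was -1.07 over the 9 genes and -0.0044 over all genes tested. With unscaled library totals, which moved the median of all genes to 0.45, the same 6 calls were made, but the falls were smaller by over 1.5 times for Vsig4 (-0.61), Timd4 (-0.81) and Folr2 (-0.81). In bulk liver, fewer Kupffer cells and less of these RNAs per cell cannot be told apart.

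Clec4f was at 203, 203 and 238 CPM in the 3 WT MO livers and at 74.3, 49.1, 62.3 and 58.3 CPM in the 4 WT CCl4 livers. Every CCl4 liver lay below every MO liver, and the log2 fold change was -1.81 ± 0.19 (SE; adjusted p = 6.8e-07). Vsig4 was at 54.7, 58.6 and 58.1 CPM with MO and at 36.3, 22.2, 25.1 and 25.2 with CCl4. The groups did not overlap, and the log2 fold change was -1.07 ± 0.20 (adjusted p = 0.00027). Timd4, the member with the lowest CPM, was at 16.9, 17.8 and 19.7 CPM with MO and at 10.2, 5.62, 8.09 and 6.05 with CCl4. These groups were also apart, with a log2 fold change of -1.27 ± 0.25 (adjusted p = 0.00043).

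The scavenger receptors went opposite ways. Cd163 was tightly grouped, at 42.0, 41.4 and 38.7 CPM with MO and 11.1, 9.75, 11.6 and 12.5 with CCl4, and fell by 1.86 ± 0.21 on the log2 scale (adjusted p = 1.3e-06). Marco was at 66.3, 61.3 and 57.0 CPM with MO and at 190, 156, 166 and 141 with CCl4. All CCl4 livers were above all MO livers, and Marco rose by 1.41 ± 0.45 (adjusted p = 0.016). Without the third MO library the Marco change was 1.35 with an adjusted p of 0.055. Cd5l was at 197, 168 and 187 CPM with MO and at 160, 117, 120 and 106 with CCl4. Its groups did not overlap, but the log2 difference of -0.55 ± 0.23 missed the threshold (adjusted p = 0.054); it passed in a fit of only these 2 groups (0.029) and without the first CCl4 library (0.028). With unscaled library totals the Cd5l difference was -0.080 (adjusted p = 0.81).

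Folr2 was at 19.99, 20.6 and 24.2 CPM with MO and at 11.3, 8.89, 8.47 and 6.79 with CCl4, a fall of 1.28 ± 0.27 (adjusted p = 0.00068) with no overlap. The 2 genes shared by most macrophages did not pass. Adgre1 was at 22.3 ± 4.64 CPM (SD, n = 3) with MO and 28.3 ± 10.5 (n = 4) with CCl4, a log2 difference of 0.35 ± 0.38 (adjusted p = 0.48) with overlapping groups. Csf1r was at 102 ± 6.42 and 71.3 ± 15.9 CPM, a log2 difference of -0.52 ± 0.26 (adjusted p = 0.11, and 0.048 in the fit of only these groups). With unscaled library totals it was -0.053 (adjusted p = 0.89), and that of Adgre1 was 0.82 (adjusted p = 0.11). In all, 7 of the 9 genes were lower in every CCl4 liver than in any MO liver, against 24.8% of all genes tested.

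**Figure D1:**
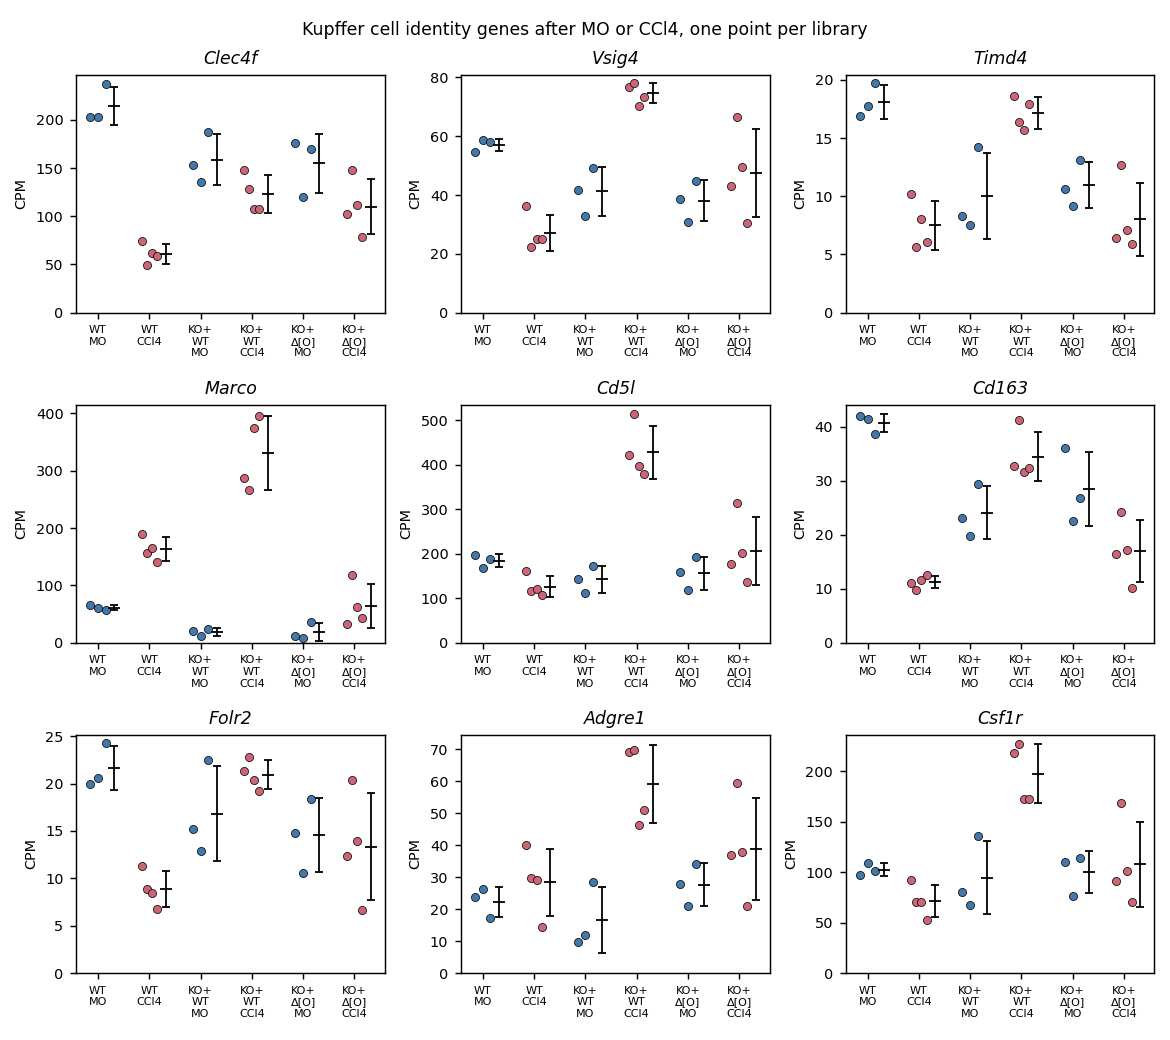
Level of each of the 9 genes in CPM (y axis, from 0) in every library of the MO and CCl4 table, by group (x axis: WT, knockout with WT HMGB1, KO+WT, and knockout with Δ[O] HMGB1, KO+Δ[O]). Points are libraries and the bar beside them is the mean ± SD (n = 3 with MO, n = 4 with CCl4). Clec4f is lowest in the WT CCl4 livers at 49.1 to 74.3 CPM, and Marco is highest in the CCl4 livers of knockout mice with WT HMGB1 at 267 to 396 CPM.

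Lists of related genes put these values in context; each is described by its counts. Of 13 other genes known from Kupffer cells, 8 fell and 1 rose in WT livers with CCl4 (median log2 fold change -0.78), with the largest falls in Fcna (a ficolin, -1.78 ± 0.16), C6 (a complement component, -1.50 ± 0.50), Sucnr1 (the succinate receptor, -1.42 ± 0.36) and Kcna2 (-1.16 ± 0.24). Of 16 genes general to macrophages, 4 rose and 1 fell (median 0.21). The C1q genes, which Kupffer and other macrophages share, were in the part that did not pass: C1qa was at 95.8 ± 10.1 CPM with MO and 81.1 ± 13.8 with CCl4. Of 16 genes of infiltrating and scar-associated macrophages, 13 rose and none fell (median 2.97), led by Gpnmb (6.10 ± 0.81) and Mmp12 (5.72 ± 1.03). The summed level of this last list was 119 to 155 CPM in the MO livers and 362 to 571 CPM in the CCl4 livers, and no gene of it was at 0 in either group. Its part in the Marco rise was not tested.

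Against the mean log2 level of C1qa, C1qb and C1qc in the same library, Clec4f was lower in WT CCl4 than WT MO livers by a difference of -1.63, Cd163 of -1.66, Timd4 of -1.11, Folr2 of -1.10 and Vsig4 of -0.90. On this scale the difference was -0.37 for Cd5l, -0.35 for Csf1r, 0.47 for Adgre1 and 1.59 for Marco. These are differences of group means with no test.

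In knockout livers that had received WT HMGB1, CCl4 raised 7 of the 9 genes, against 23.3% of all genes tested, and lowered none, against 24%. Marco was at 19.9, 11.2 and 24.4 CPM in the 3 MO livers and at 287, 267, 375 and 396 CPM in the 4 CCl4 livers, a rise of 4.16 ± 0.52 on the log2 scale (adjusted p = 9.2e-06). Every CCl4 liver was above every MO liver. Cd5l was at 144, 112 and 172 CPM with MO and at 422, 514, 397 and 380 with CCl4, and rose by 1.59 ± 0.24 (adjusted p = 3.5e-05) with no overlap.

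The genes shared by most macrophages rose too. Adgre1 was at 9.67, 11.7 and 28.4 CPM with MO and at 69.1, 69.7, 46.3 and 51.0 with CCl4, a log2 rise of 1.82 ± 0.40 (adjusted p = 0.0011). The third MO library was the highest of its group for every member, and for Adgre1 and Csf1r it stood well above the other 2. Csf1r was at 79.8, 67.8 and 136 CPM with MO and at 218, 227, 172 and 173 with CCl4, a rise of 1.06 ± 0.27 (adjusted p = 0.0032).

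Vsig4 rose from 41.7, 32.8 and 49.1 CPM to 76.9, 78.0, 70.4 and 73.3 (0.86 ± 0.21; adjusted p = 0.0022). Timd4 was at 8.29, 7.57 and 14.2 CPM with MO and at 18.6, 16.4, 15.7 and 17.9 with CCl4 (0.77 ± 0.26; adjusted p = 0.019). Its groups did not overlap, yet the call was lost without the first or the second MO library (adjusted p = 0.090 and 0.11). Cd163, at 23.2, 19.8 and 29.4 CPM with MO and 32.8, 41.2, 31.6 and 32.3 with CCl4, rose by 0.51 ± 0.21 and barely passed (adjusted p = 0.0496). That call was lost without any of 6 of the 7 libraries, all but the third MO library, and with no filter on low counts, with adjusted p from 0.050 to 0.21. With unscaled library totals the Cd163 rise was 0.81.

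Clec4f did not follow. It was at 153, 135 and 187 CPM with MO and at 148, 128, 108 and 108 with CCl4, a log2 difference of -0.37 ± 0.19 (adjusted p = 0.12) with overlapping groups. Folr2 was at 16.8 ± 5.00 CPM (n = 3) and 20.9 ± 1.54 (n = 4), a difference of 0.31 ± 0.27 (adjusted p = 0.35). Relative to the C1q genes, which themselves rose (C1qa by 1.17 ± 0.23, C1qb by 1.31 ± 0.21, C1qc by 1.15 ± 0.18), the difference for Clec4f was -1.56, for Folr2 -0.84, for Cd163 -0.67 and for Marco 3.01.

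In the same livers 12 of the 16 general macrophage genes rose and none fell, and 12 of the 16 infiltrating and scar-associated genes rose and none fell, with Gpnmb up by 5.58 ± 0.73 and Trem2 by 3.81 ± 0.39. The other Kupffer genes were mixed, with 4 higher, Cd207 (1.67 ± 0.30) and Tmem26 (1.31 ± 0.33) in front, and 2 lower, Sucnr1 (-0.92 ± 0.33) and Fcna (-0.86 ± 0.16). The 9 genes summed to 411 to 663 CPM in the MO livers and 1236 to 1364 CPM in the CCl4 livers. The infiltrating and scar-associated list summed to 152 to 195 and 577 to 798 CPM, with no gene at 0, and its part in these rises was not tested.

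In knockout livers that had received Δ[O] HMGB1, CCl4 raised 1 member and lowered 1, against 12.9% of all genes called higher and 11.4% called lower. Marco was at 11.3, 7.75 and 36.6 CPM with MO and at 33.2, 119, 62.3 and 43.4 with CCl4 (1.79 ± 0.46; adjusted p = 0.0090). The third MO library lay above the lowest CCl4 library, so the groups overlapped, and without that library the rise was 2.75. Cd163 was at 36.1, 22.5 and 26.9 CPM with MO and at 16.5, 24.2, 17.1 and 10.2 with CCl4, and fell by 0.74 ± 0.21 (adjusted p = 0.013), again with overlap. A fit of only these 2 groups called neither (adjusted p = 0.076 for Marco and 0.10 for Cd163), and Cd163 was also lost without the first MO library (0.10) and with unscaled library totals (0.11).

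The remaining 7 ranged from -0.49 ± 0.19 for Clec4f (adjusted p = 0.065) to 0.49 ± 0.38 for Adgre1 (0.37). Timd4 was at 10.98 ± 1.99 CPM with MO and 8.01 ± 3.14 with CCl4, a difference of -0.45 ± 0.25 (adjusted p = 0.21). The second CCl4 library of this group was the highest of its group for all 9 genes and the last one, labelled 5, the lowest for 8 of them, Marco being lowest in the first. Without that second library 4 of the 9 genes were called: Marco higher, and Cd163, Timd4 (-0.73; adjusted p = 0.035) and Clec4f (-0.64; adjusted p = 0.027) lower. Here too 12 of the 16 infiltrating and scar-associated genes rose, with none lower.

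**Figure D2:**
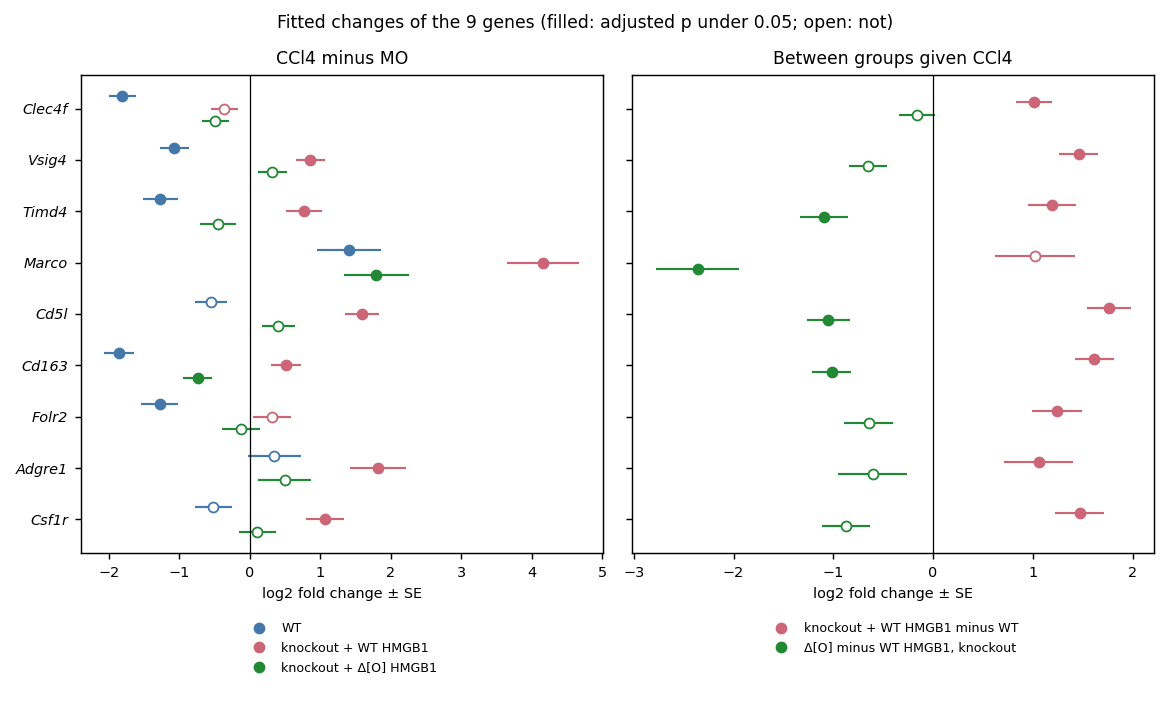
Log2 fold change ± SE (x axis) of each gene (y axis) from edgeR. The left part shows CCl4 minus MO in WT livers and in knockout livers with WT or Δ[O] HMGB1. The right part shows 2 comparisons between groups given CCl4. Filled points passed an adjusted p of 0.05 and open points did not. In the WT livers 5 filled points lie below 0 and only Marco above, while in knockout livers with WT HMGB1 the 7 filled points lie above 0.

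The response to CCl4 differed between the WT livers and the knockout livers with WT HMGB1 for 8 of the 9 genes, by the interaction term of the fit, against 6.85% of all genes tested called higher. The difference of the 2 log2 fold changes was 2.75 ± 0.63 for Marco (adjusted p = 0.0079), 2.37 ± 0.30 for Cd163 (9.0e-05), 2.13 ± 0.33 for Cd5l (0.00045) and 2.04 ± 0.36 for Timd4 (0.0012). It was 1.93 ± 0.29 for Vsig4 (0.00040), 1.59 ± 0.38 for Folr2 (0.0091), 1.58 ± 0.37 for Csf1r (0.0085) and 1.45 ± 0.27 for Clec4f (0.0019). For Adgre1 it was 1.47 ± 0.53 (adjusted p = 0.077), and 0.032 in DESeq2. This count of 8 held in each fit without 1 library, all 9 passing without the third library of the knockout MO group. The 2 genotypes also differ in the HMGB1 that was given, so the deletion and the delivery cannot be told apart.

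Both ends of that response differed. With MO, 3 members were lower in knockout livers with WT HMGB1 than in WT livers, against 11.5% of all genes: Marco (61.5 ± 4.68 CPM in WT, 18.5 ± 6.70 in knockout; -1.73 ± 0.48, adjusted p = 0.014), Cd163 (-0.75 ± 0.22, adjusted p = 0.018) and Timd4 (-0.85 ± 0.27, adjusted p = 0.029). None of the 3 calls held without the second knockout MO library (adjusted p = 0.065 to 0.13). Cd163 was also lost without the first knockout or the first or second WT library (0.052 to 0.058), and Timd4 without any library but the third knockout one (0.053 to 0.13). Both were lost with unscaled library totals (adjusted p = 0.16 for each), where the Cd163 difference was -0.49. No member was higher, against 12.7% of all genes. With CCl4, 8 members were higher in the knockout livers, against 15.8% of all genes, and for all 9 the groups did not overlap, against 17.7%. Cd5l stood at 126 ± 23.7 CPM in WT and 428 ± 59.9 in knockout livers (1.76 ± 0.22, adjusted p = 1.0e-05). Cd163 stood at 11.2 ± 1.14 and 34.5 ± 4.49 CPM (1.62 ± 0.20, adjusted p = 9.5e-06), Csf1r at 71.3 ± 15.9 and 197 ± 29.1 (1.47 ± 0.25) and Vsig4 at 27.2 ± 6.2 and 74.7 ± 3.48 (1.46 ± 0.19). Clec4f stood at 61.0 ± 10.5 and 123 ± 19.4 CPM (1.01 ± 0.18, adjusted p = 0.00035). Marco, at 163 ± 20.8 and 331 ± 63.9 CPM (1.02 ± 0.40), was the one that missed (adjusted p = 0.066), and passed in the fit of only these groups (0.0016).

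The Adgre1 call with CCl4 (1.06 ± 0.35, adjusted p = 0.029) was lost without any of 5 of the 8 libraries (the WT libraries 2, 3 and 4 and the knockout libraries 1 and 3), with adjusted p from 0.054 to 0.099. General macrophage genes moved in the same comparison, 14 of 16 higher, C1qa by 1.44 ± 0.21 and C1qc by 1.39 ± 0.17. Lyz2, also on that list, went the other way and was lower in every knockout library than in any WT library. Relative to the C1q genes, the differences of the 9 members between these groups lay between -0.34 and 0.42. Of the 13 other Kupffer genes 10 were higher, Sucnr1 by 2.93 ± 0.34 and Clec1b by 1.52 ± 0.18. The comparisons of WT and knockout livers use the same WT CCl4 and WT MO libraries as the CCl4 response in WT livers.

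The comparison of Δ[O] with WT HMGB1 in knockout livers keeps the deletion constant. The mean level of Hmgb1 was also higher with Δ[O] than with WT HMGB1, under MO and under CCl4 (values above). Effects of the form of HMGB1 and of the Hmgb1 level therefore cannot be told apart. With MO, edgeR called none of the 9 and 0% of all genes, with 0 members and 1549 genes at an unadjusted p under 0.05, and DESeq2 called none of the members. The log2 differences ran from -0.21 to 0.72; the interval of 2 SE reached from -0.44 to 0.38 for Clec4f and from -0.08 to 1.53 for Adgre1. With CCl4, 4 of the 9 genes were lower with Δ[O] HMGB1, against 2.19% of all genes, and 6 of the 9 did not overlap between the groups in that direction, against 7.07%.

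Marco was at 287, 267, 375 and 396 CPM with WT HMGB1 and at 33.2, 119, 62.3 and 43.4 with Δ[O] HMGB1, a log2 difference of -2.36 ± 0.42 (adjusted p = 0.0076). Cd5l was at 422, 514, 397 and 380 CPM against 176, 313, 202 and 136 (-1.05 ± 0.21; adjusted p = 0.012). Cd163 was at 32.8, 41.2, 31.6 and 32.3 CPM against 16.5, 24.2, 17.1 and 10.2 (-1.02 ± 0.19; adjusted p = 0.0090). For each of these 3 genes every Δ[O] liver was below every liver with WT HMGB1. Timd4 was at 18.6, 16.4, 15.7 and 17.9 CPM against 6.43, 12.7, 7.08 and 5.87 (-1.09 ± 0.24; adjusted p = 0.017), also without overlap.

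Vsig4 (-0.66 ± 0.19; adjusted p = 0.073) and Csf1r (-0.87 ± 0.24; adjusted p = 0.065) were lower in every Δ[O] liver but missed the threshold, which both passed in DESeq2 (0.042 and 0.023). With the sample number as a block Csf1r passed as well (adjusted p = 0.035). Clec4f, at 123 ± 19.4 and 110 ± 28.9 CPM (n = 4 each), differed by -0.16 ± 0.18 (adjusted p = 0.74), with an interval of 2 SE from -0.52 to 0.20. Only Marco was called in a fit of these 2 groups alone, where the other 3 had adjusted p from 0.065 to 0.071. Without the Δ[O] library numbered 3 Marco alone passed as well, without number 1 Marco and Cd163 passed, and without number 2 there were 7 calls. Timd4 was also lost without the Δ[O] library 5 or the WT HMGB1 library 5 (adjusted p = 0.060 and 0.075), and Cd5l without the WT HMGB1 library 3 (0.054). Marco passed in every one of these fits.

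Of the 16 general macrophage genes 9 fell in this comparison as well, among them Fcer1g (-1.06 ± 0.17), C1qa (-0.95 ± 0.21), C1qb (-0.94 ± 0.19) and Ctss (-0.94 ± 0.17). Of the 13 other Kupffer genes edgeR called none. Relative to the C1q genes the difference was -1.59 for Marco and 0.73 for Clec4f, and lay between -0.24 and 0.24 for the other 7. The infiltrating and scar-associated list summed to 577 to 798 CPM with WT HMGB1 and 290 to 648 CPM with Δ[O] HMGB1, and 1 of its 16 genes, Itgam (-1.70 ± 0.41), was called; its part in the member differences was not tested. The CCl4 response itself, tested as an interaction, differed between WT and Δ[O] HMGB1 for none of the 9 genes (0% of all genes called). Of the members 6 had an unadjusted p under 0.05 (2098 of all genes), DESeq2 called 1 (Cd163), and 6 passed without the third library of the MO group with WT HMGB1, the library that stood high for Adgre1 and Csf1r. Without the second Δ[O] CCl4 library 2 passed.

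**Figure D3:**
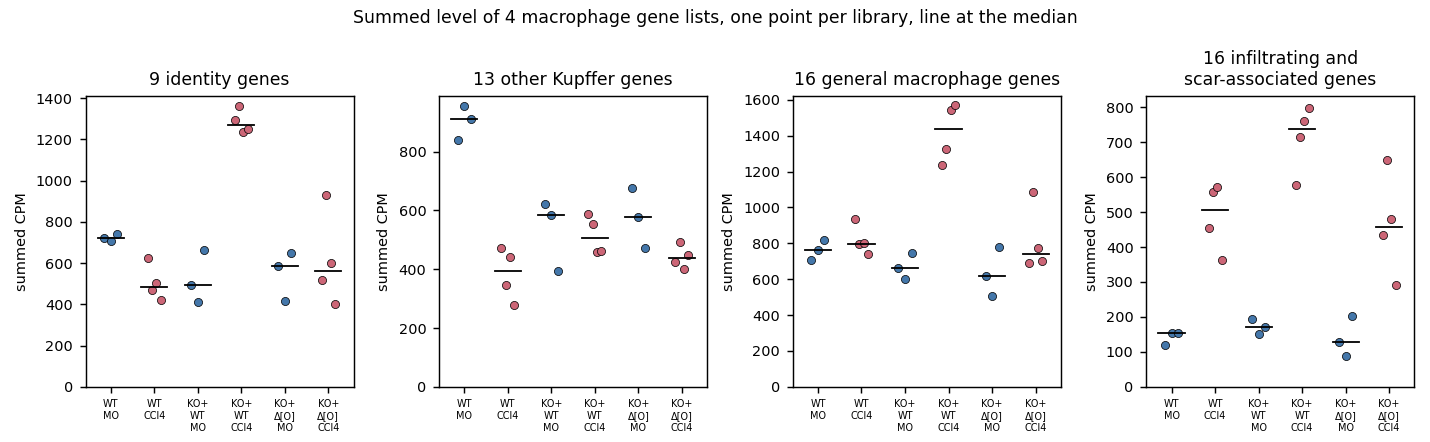
Summed CPM (y axis, from 0) of the 9 identity genes, 13 other Kupffer genes, 16 general macrophage genes and 16 infiltrating and scar-associated macrophage genes in each library of the MO and CCl4 table, by group as named above, with a line at each group's median. The identity genes sum to 1236 to 1364 CPM in the CCl4 livers of knockout mice with WT HMGB1 and to at most 931 CPM in any other library, while the other Kupffer genes are highest in the WT MO livers at 841 to 957 CPM. The general macrophage list includes Lyz2, which is lower in every knockout library than in any WT library.

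In fibrotic livers of WT mice, [H] HMGB1 gave lower values than BSA for all 9 genes, from -0.33 ± 0.58 for Marco to -1.23 ± 0.67 for Cd163, but edgeR called none of them and 0% of all genes (1447 genes and 4 members at an unadjusted p under 0.05; DESeq2 called 3 genes and no member). The median over the 9 was -0.89, and over all genes -0.00027. Adgre1 was at 42.7, 54.5 and 70.7 CPM with BSA and at 19.3, 27.5 and 30.8 with [H] HMGB1 (-1.11 ± 0.28; adjusted p = 0.41). Timd4 was at 21.1, 40.4 and 31.3 CPM against 15.3, 12.3 and 12.5 (-1.21 ± 0.52; adjusted p = 0.44). These 2 genes and Cd163 were lower in every [H] HMGB1 liver than in any BSA liver, which makes 3 of 9 against 4.87% of all genes. Csf1r, at 119, 207 and 245 CPM against 73.1, 96.6 and 139, overlapped (-0.89 ± 0.30; adjusted p = 0.41).

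The general macrophage list had a median of -0.74 in that comparison, the sinusoidal endothelial list -0.73, the stellate and myofibroblast list -1.02 and the neutrophil list -2.34, with no gene called in any of them. The summed level of the 16 general macrophage genes was 1277 to 2384 CPM with BSA and 912 to 1214 CPM with [H] HMGB1. Whether these lists account for the lower member values was not tested.

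[O] HMGB1 against BSA gave no call among the 9 genes and 0% of all genes, with 1 member and 726 genes at an unadjusted p under 0.05 and 5 genes but no member in DESeq2. The differences ran from -0.65 ± 0.66 for Cd163 to 0.71 ± 0.27 for Adgre1 (adjusted p = 0.89). Marco was at 402, 528 and 265 CPM with BSA and at 544, 814 and 540 CPM with [O] HMGB1, each above the BSA livers, with a difference of 0.67 ± 0.59 (adjusted p = 0.90). No other member was without overlap, while 3.17% of all genes tested were higher without overlap. The second [O] HMGB1 library stood apart in both directions. It had the lowest Clec4f (24.6 CPM), Vsig4 (16.4) and Cd163 (3.99) of all 18 libraries in the table and the highest Marco (814) and Adgre1 (110). Without it the Vsig4 difference was 0.035 in place of -0.41.

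Between the 2 HMGB1 forms, 8 of the 9 genes had higher values with [O] than with [H] HMGB1 (median 0.83), and edgeR again called none of them and 0% of all genes (1412 genes and 3 members at an unadjusted p under 0.05). Adgre1 came nearest, at 57.5, 110 and 108 CPM with [O] and 19.3, 27.5 and 30.8 with [H] HMGB1, a log2 difference of 1.83 ± 0.28 (adjusted p = 0.098). It passed in DESeq2 (7.5e-06), where 278 genes were called, with the sample number as a block (0.025), and without the first [O] HMGB1 library (0.0062). Adgre1, Cd5l, Csf1r, Timd4 and Marco were higher in every [O] than in any [H] HMGB1 liver, 5 of 9 against 9.27% of all genes. Clec4f was not among them, at 82.3 ± 52.2 and 87.3 ± 47.1 CPM (SD, n = 3 each), a difference of -0.09 ± 0.47. The 3 fibrosis comparisons share groups and are not independent.

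After 1 week of regression in BSA-treated mice, no difference of the 9 genes from fibrosis passed the test, and the intervals leave room for large ones. EdgeR called none against 9.02% of all genes in either direction; no member had an unadjusted p under 0.05, and DESeq2 called none. Clec4f was at 90.7, 137 and 153 CPM in fibrosis and 173, 157 and 180 in resolution, without overlap (0.42 ± 0.47; adjusted p = 0.55). Marco was at 398 ± 131 and 279 ± 114 CPM (-0.51 ± 0.58), Cd5l at 320 ± 79.2 and 286 ± 23.98 (-0.16 ± 0.31) and Csf1r at 190 ± 65.1 and 178 ± 6.2 (-0.10 ± 0.30). The intervals of 2 SE were wide, from -0.78 to 0.45 for Cd5l and from -1.68 to 0.66 for Marco.

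In the same comparison 10 of the 16 infiltrating and scar-associated genes fell and none rose (median -1.97), led by Chil3 (-4.70 ± 0.99) and Mmp12 (-3.85 ± 0.57). Their sum went from 610 to 1032 CPM in fibrosis to 264 to 372 CPM in resolution, while the 9 identity genes summed to 1004 to 1458 and 928 to 1256 CPM. Of the 16 general macrophage genes 2 fell, Cd14 (-3.82 ± 1.03) and Cd68 (-1.80 ± 0.39). Of the 13 other Kupffer genes 12 were tested and none was called.

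In resolving livers neither [SO3] HMGB1 nor the antibody moved the members past the test. For [SO3] HMGB1, edgeR called no member and 0% of all genes (no member and 812 genes at an unadjusted p under 0.05; DESeq2 called 80 genes and no member), with differences from -0.94 ± 0.59 for Marco to 0.28 ± 0.51 for Timd4. Clec4f was at 190, 191 and 172 CPM with [SO3] HMGB1. For the antibody, edgeR called no member and 0% of all genes (no member and 279 genes unadjusted; DESeq2 called 7 genes and no member), with differences from -0.53 ± 0.66 for Cd163 to 0.48 ± 0.58 for Marco. The first antibody library was the lowest of its group for all 9 genes, with Clec4f at 77.3 CPM against 179 and 177, and Cd5l at 135 against 423 and 354.

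**Figure D4:**
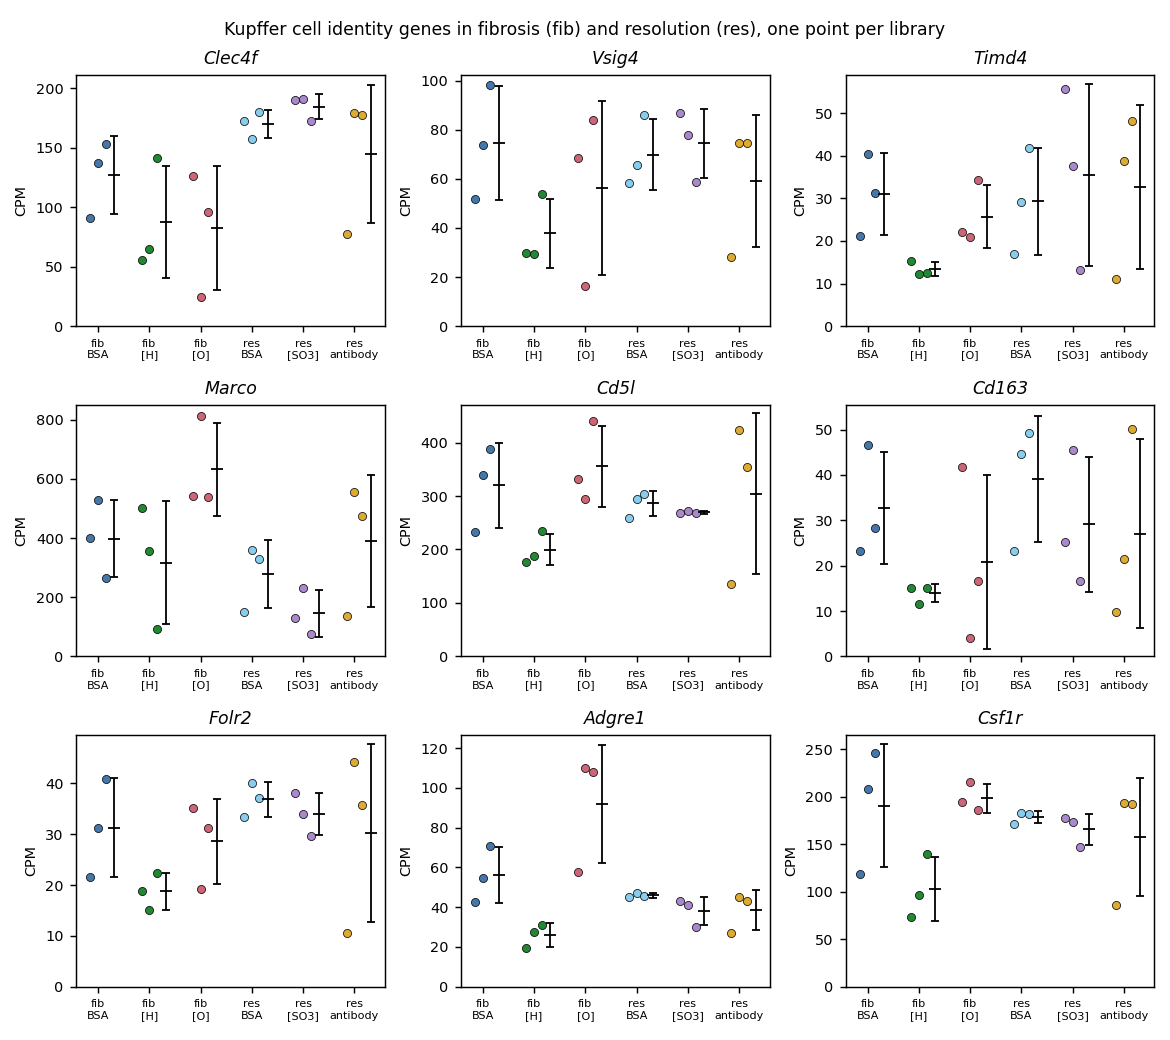
Level of each of the 9 genes in CPM (y axis, from 0) in every library of the fibrosis and resolution table, by group (x axis: fib, fibrosis after 4 weeks of CCl4; res, resolution for 1 week). Points are libraries and the bar beside them is the mean ± SD (n = 3). Adgre1 is at 19.3 to 30.8 CPM with [H] HMGB1 and at 57.5 to 110 CPM with [O] HMGB1, and the second [O] HMGB1 library has the lowest Clec4f and the highest Marco.

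Replicates of a group differed in how closely they agreed. The median coefficient of variation over the 9 genes was 7.97% in the WT MO group and 9.23% in the resolution BSA group, and was highest at 49.5% in the antibody group and 39.2% in the knockout group with Δ[O] HMGB1 and CCl4. Each of these last groups holds 1 library that was the lowest or the highest of its group in all 9 genes.

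The 9 genes did not vary as one. Across the 21 libraries of the MO and CCl4 table, the 28 pairs that leave out Marco had a median Pearson r of 0.78 in log2 CPM. They ran from -0.04 (Clec4f with Adgre1) to 0.95 (Cd5l with Csf1r). Marco's 8 pairs had a median of 0.34 and fell to -0.38 with Clec4f. Across the 18 libraries of the other table the corresponding medians were 0.68 and 0.16, and Marco with Clec4f was at -0.43. There the lowest pair without Marco was again Clec4f with Adgre1, at -0.13. These correlations are descriptions over libraries that share treatment groups and tissue makeup.

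Among the genes most like the mean of the 9 in the MO and CCl4 table, over 14129 genes and 21 libraries, were a row whose symbol had become a date (1-Mar.1, r = 0.94, which cannot be assigned to one gene), Ccdc148 (0.92), Nrros (0.91), Mefv (0.91), Pcolce2 (0.91), Themis2 (0.91), Adgre4 (0.90), Cds1 (0.90) and Lyn (0.89). In the fibrosis and resolution table, over 13487 genes and 18 libraries, they were Sdc3 (0.89), Ptgs1 (0.86), C1qc (0.86), Wfdc17 (0.86), Ramp1 (0.84), Tfec (0.83), Clec1b (0.82), Adrb1 (0.80), Pyhin1 (0.80) and Siglec1 (0.80). The gene nearest to Clec4f was Fcna (0.93) in the MO and CCl4 table, and Agmat (0.90) and Cyp2c50 (0.89), both enzymes of hepatocytes, in the fibrosis and resolution table. The nearest to Marco were C5ar1 (0.94), the complement C5a receptor, and Adprh (0.86). Cd5l was most like Cd300a (0.96) after the date row (0.97) in one table and like C1qc (0.94) and C1qb (0.93) in the other. Adgre1 was nearest to Kctd12 (0.95) and to Prex1 (0.95), and Csf1r to Lyn (0.96) and to March1 (0.92).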

How the data were processed

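RNA from total mouse liver was sequenced from Illumina TruSeq Stranded mRNA libraries, per the labels' protocols, in 18 and 21 libraries held in separate tables; 12 rat cell libraries of the study were not used. The authors deposited whole-number counts per gene, and the submitters' processing notes name mm10. The sources used here name no aligner or counter and no strand setting, so reads of overlapping genes may be mixed. In the MO and CCl4 table, columns of class HMN were taken as knockout livers with WT HMGB1 and HMO as those with Δ[O] HMGB1, since their column numbers match those titles. The no-feature reads, 5.50% to 8.51% of gene counts, were left out.

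The members and all gene lists were chosen with earlier results of these data known. Each table was fitted in edgeR 4.0.16 (R 4.3.3) over all its groups, with filterByExpr (minimum count 10, minimum total 15), TMM factors, the robust quasi-likelihood test and Benjamini-Hochberg adjustment over all genes tested (threshold 0.05). Named genes outside the members are up to 4 of each list with the largest called changes in a comparison, those that check a cell type, and those nearest the members by Pearson's r over log2 CPM (prior count 2, 10 for their mean and up to 3 per member); Nr1h3, Zeb2 and Fcna in 1 comparison each, and the C1q genes as a macrophage reference, stand outside that rule and were chosen after their values were seen. Some genes that the rule names are not reported here. Intervals are 2 SE either side. The scripts were tested on simulated counts. Alternatives were no filter, RLE factors, unscaled library totals (added after seeing the data), DESeq2 1.42.0, only the groups compared, the sample number as a block, and leaving out each library. Same-numbered samples deviated together in 6 comparisons, with every correlation above 0.1: the 3 between fibrosis groups (0.19 to 0.71), Δ[O] against WT HMGB1 with MO (0.29 to 0.45) and with CCl4 (0.11 to 0.26), and knockout against WT with CCl4 (0.12 to 0.31). The main fit, which gave the calls reported above, does not use these numbers. A fit with the number as a block is among the alternatives. No replicates differed by as little as sampling noise. Depth was about 8355700 to 16327000 and 22599000 to 39323000 counts per library.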

Additional observations from a re-analysis of the deposited data

Results flagged for a closer look

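The response of 8 of the 9 genes to CCl4 differed between WT livers and knockout livers with WT HMGB1, by the interaction term of edgeR's quasi-likelihood test with Benjamini-Hochberg adjustment. For these 8 the log2 fold change was the higher one in the knockout livers, against 6.85% of all genes called higher. The differences in log2 fold change were 1.45 for Clec4f, 1.93 for Vsig4, 2.04 for Timd4, 2.75 for Marco, 2.13 for Cd5l, 2.37 for Cd163, 1.59 for Folr2 and 1.58 for Csf1r. The labels name no added HMGB1 for the WT livers, so the deletion and the HMGB1 that was given cannot be told apart. Cd163 in the knockout CCl4 liver with WT HMGB1 numbered 3 stood apart from its group, at 41.2 CPM where the other 3 lay between 31.6 and 32.8. It was the only one of 27 sets of 4 values tested to stand out, and chance alone marks about 1 in 20.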

How the results depend on the processing

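Of the 135 log2 differences of single genes, 38 passed the test. In 559 alternative fits of these 38 no sign changed, and 12 lost the call at least once. Of the others, 30 changed sign at least once; the cause was not tested. Groups of 3 or 4 libraries limit precision more than depth does, since the lowest member count was 69.

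Members called moved by over 1.5 times as follows. Between [O] and [H] HMGB1 in fibrosis, DESeq2 and the fit with the sample number as a block each called 1 (0 to 1 without 1 library). For CCl4 with Δ[O] HMGB1 unscaled library totals called 1 and the fit of only the groups compared 0 (1 to 4 without 1 library). For Δ[O] against WT HMGB1 with CCl4 the fit of only those groups called 1 (1 to 7 without 1 library). For the difference in response between Δ[O] and WT HMGB1 DESeq2 called 1 (0 to 6 without 1 library). For knockout against WT with MO unscaled library totals called 1 (0 to 3 without 1 library). Without 1 library, 5 to 7 members were called for CCl4 in WT livers, 5 to 7 in knockout livers with WT HMGB1, 7 to 8 between those under CCl4 and 8 to 9 for their difference in response. Where same-numbered samples deviated together, the replicate block changed only the calls of Adgre1 (1.81, [O] against [H] HMGB1) and Csf1r (-1.01, Δ[O] against WT HMGB1 with CCl4). Elsewhere same-numbered samples correlated at -0.25 to 0.34, and the block changed 1 call, Adgre1 in the difference in response between knockout and WT livers (1.77, adjusted p = 0.025).

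Unscaled library totals moved the median of all genes to 0.45 for CCl4 in WT livers, 0.27 and 0.14 in knockout livers with WT and Δ[O] HMGB1, 0.28 and 0.11 for knockout against WT with MO and CCl4, -0.16 and -0.12 for the differences in response, and -0.14 for resolution. Under them the genes called higher went from 3219 of 6542 to 6862 of 8057 (WT), 3298 of 6685 to 5180 of 6712 and 1818 of 3425 to 2557 of 3241 (knockout), 1801 of 3423 to 3639 of 4386 and 2230 of 4068 to 2671 of 3821 (knockout against WT), 968 of 1906 to 529 of 1888 (difference in response) and 324 of 1216 to 158 of 1196 (resolution). Signs of uncalled members changed under them for Clec4f between [O] and [H] HMGB1 (0.020), Folr2 with Δ[O] HMGB1 (0.074) and Csf1r between knockout and WT with MO (0.16), and under the block for Folr2 with Δ[O] HMGB1 (0.0019) and Marco between Δ[O] and WT HMGB1 with MO (-0.068).

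Genes called in all went from 326 to 579 in DESeq2 and 108 with only the groups compared for Δ[O] against WT HMGB1 with CCl4, and from 1216 to 2334, 91 and, with no filter, 776 for resolution. From 0, DESeq2 called 7 for the antibody, 80 for [SO3] HMGB1 (49 with only the groups compared, 2 with the block), 21 for Δ[O] HMGB1 with MO (4 with the block) and 85 for the difference in response (3 with the block).

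Leaving out 1 library changed the sign of these uncalled differences, given as lowest to highest. [H] against BSA: Marco -0.84 to 0.11. [O] against BSA: Vsig4 -0.82 to 0.035, Cd5l -0.033 to 0.31, Folr2 -0.34 to 0.12, Csf1r -0.19 to 0.28. [O] against [H]: Clec4f -0.52 to 0.45, Cd163 -0.41 to 1.08. [SO3] HMGB1: Vsig4 -0.021 to 0.29, Timd4 -0.19 to 0.69. Antibody: Clec4f -0.43 to 0.066, Vsig4 -0.46 to 0.096, Timd4 -0.26 to 0.57, Cd5l -0.23 to 0.44, Folr2 -0.68 to 0.12, Csf1r -0.37 to 0.12. Resolution: Vsig4 -0.30 to 0.15, Timd4 -0.41 to 0.22, Cd5l -0.34 to 0.0018, Csf1r -0.34 to 0.13. CCl4 with Δ[O] HMGB1: Folr2 -0.38 to 0.091, Csf1r -0.16 to 0.26. Δ[O] against WT HMGB1 with MO: Clec4f -0.14 to 0.12, Vsig4 -0.25 to 0.033, Timd4 -0.042 to 0.47, Marco -0.96 to 0.37, Cd5l -0.043 to 0.30, Folr2 -0.41 to 0.057, Csf1r -0.11 to 0.44. Difference in response between Δ[O] and WT HMGB1: Clec4f -0.29 to 0.0062. Knockout against WT with MO: Csf1r -0.47 to 0.079.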

Other observations

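Of 15 transcription factors known from Kupffer cells, 3 rose with CCl4 in WT livers, Id1 (2.57 ± 0.43), Runx1 (1.56 ± 0.29) and Zeb2 (0.66 ± 0.16), against 22.8% of all genes. Another 3 fell, against 23.5%, Cebpa (-1.52 ± 0.17) and Nr1h3, which encodes LXRα (-0.56 ± 0.11), among them. In knockout livers with WT HMGB1 8 of the 15 rose, against 23.3% of all genes, and 3 fell, against 24%, with Runx1 (1.60 ± 0.28) and Zeb2 (1.53 ± 0.16) in front. Between these groups under CCl4, Spic, a factor of iron-handling macrophages, was higher by 1.82 ± 0.22 in the knockout livers, and Spi1, which encodes PU.1, by 1.22 ± 0.16. With Δ[O] instead of WT HMGB1 under CCl4, 3 of the 15 were lower, against 2.19% of all genes: Spic (-0.97 ± 0.21), Spi1 (-0.91 ± 0.16) and Zeb2 (-0.81 ± 0.15). Under MO, Id3, a repressor that Kupffer cells need, was higher in knockout livers with WT HMGB1 than in WT livers (1.52 ± 0.29). All these values are from total liver, and which cells the changes of these factors come from was not tested.

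Of 15 signals of the Kupffer niche and their receptors, Csf1r included, 8 rose with CCl4 in WT livers, against 22.8% of all genes. None fell, against 23.5%. Among the 8 were the Notch ligands Dll1 (1.09 ± 0.22) and Jag1 (0.85 ± 0.23), and Tgfb1 (0.97 ± 0.19). In knockout livers with WT HMGB1 8 rose too, against 23.3% of all genes, led by Bmp10 (1.96 ± 0.55) and Tgfb1 (1.38 ± 0.19). Of 16 other scavenger and complement receptors, 7 were lower with Δ[O] than with WT HMGB1 under CCl4, against 2.19% of all genes. None was higher, against 0.11%. The 7 include Itgam (-1.70 ± 0.41) and Itgb2 (-1.26 ± 0.22), the chains of complement receptor 3, and Msr1 (-0.997 ± 0.20). Itgam also stands on the list of infiltrating macrophages. Of 9 neutrophil genes, 6 fell with CCl4 in knockout livers with WT HMGB1, against 24% of all genes, and 1 rose, against 23.3%. In WT livers 7 rose, against 22.8%, and none fell, against 23.5%. Under MO, 8 of the 9 were higher in those knockout livers than in WT livers, with a median log2 fold change of 2.81, against 12.7% of all genes. These are edgeR values over all genes tested, with the same libraries as the comparisons above.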
